A study of Mus musculus with 40 samples.

Results

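The change in mouse kidney RNA 24 h after ischaemia-reperfusion injury (IRI) was compared with the change 24 h after surgery without ischaemia. The measure was a difference of differences on the log2 scale: IRI 24 h minus Control, minus sham 24 h minus sham control. It used 16 of the 40 samples of the series, 4 in each of 4 groups, and 19615 genes of the 55862 names shared by the 2 deposited count tables passed the filter on low counts. A gene whose level changed alike after both operations has a difference near 0, and a positive value means a higher level after IRI than the change after sham surgery gives. All 16 samples were whole-kidney total RNA from mice labelled C57bl/6-wt. The Control group carries no treatment in its labels, and the IRI 24 h group is labelled as taken 24h after reperfusion. The sham control group is labelled as having had no surgery. For the sham 24 h group the source label says surgery without IRI while its treatment tag reads IRI, and the source label was followed. The labels of the 4 groups give no age, sex or duration of ischaemia, and they do not say whether the libraries of a group came from separate animals, so all p-values measure only the spread between these libraries, which may be technical. The treatment text common to all samples describes an injection of mesenchymal stromal cells, but no label particular to these 4 groups names one.

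In IRI the renal blood flow is stopped and then restored. The proximal tubule, above all its straight S3 segment in the outer medulla, depends on oxidative metabolism and is known as the most vulnerable part of the nephron. Surviving tubule cells are known to lose their transporters, switch on injury markers and, over days, divide. Anaesthesia, laparotomy and handling of the renal vessels change the kidney as well, and a sham operation carries these without the ischaemia. The question the design addresses is which part of the response at 24 h exceeds that of the operation.

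Both control groups had high levels of nephron markers, as the tissue label implies. The summed level of 20 markers of the S1 and S2 segments was 24500 to 28600 CPM in Control (the count scaled to library size, with TMM over the names analysed) and 22100 to 28400 CPM in sham controls. The 2 control groups nevertheless differed at 5791 genes (29.5% of those tested at an adjusted p under 0.05, the rule for every call below), 2884 higher and 2907 lower in Control. The design subtracts this gap only as far as the Control and IRI 24 h libraries carry it alike, which was not tested. Where a gene's level differed several-fold between the control groups, a comparison of IRI 24 h with sham 24 h without controls can point the other way. Such values are given beside the genes concerned. Depth over the names analysed was 14938476 to 16338707 counts in Control, 6696393 to 13517413 in IRI 24 h, 17391177 to 22263545 in sham controls and 13434749 to 17998550 in sham 24 h. Both operated groups held more mitochondrial ribosomal RNA than their controls, 1.58 to 2.01% of counts against 0.181 to 0.221% for IRI and 1.19 to 1.52% against 0.411 to 0.814% for sham surgery. Library 2 of the IRI 24 h group stood apart from the other 3 in several genes named below. Without it 4231 genes were called in the difference in place of 4774, within the 4151 to 4506 found when any 1 library was left out. Each such fit reran the filter on low counts and tested 20377 to 20746 genes in place of 19615. The adjustment and the estimate of spread changed with it, and their part in calls lost below was not tested. Some names were left out because their Control counts differ between deposited tables or for a like fault. They held 16.6 to 19.7% of joined counts in Control and 22.8 to 32.6% in IRI 24 h. In sham controls they held 33.4 to 39.9% and in sham 24 h 44.9 to 52.0%, so CPM values rest on unequal remainders. Among them are 10 of 13 mitochondrial DNA transcripts, Sod2 and Gja1. Havcr1 and Lcn2, the usual injury markers of the proximal and distal tubule, were also left out. In the sham table alone Havcr1 had 2 to 22 counts in sham controls and 0 to 34 after sham surgery, Lcn2 77 to 170 and 102 to 258, and neither was called (adjusted p = 1 and 0.29).

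Ischaemia was followed by many changes beyond those of the operation. In the difference 4774 genes were called (24.3%), of which 2707 were higher (13.8%) and 2067 lower (10.5%), and 2093 of the rises and 1486 of the falls were at least 2-fold. After IRI alone 7621 genes were called (38.9%), 4109 higher (20.9%) and 3512 lower (17.9%). Sham surgery alone moved 1785 genes (9.1%), 467 higher (2.38%) and 1318 lower (6.72%). Of the genes called after sham surgery 72.7% were also called after IRI, which is 17.0% of the IRI calls. Of these 1298 shared genes 961 moved the same way and 337 the opposite way. The median of the difference over all genes was 0.07. Counts of gene lists below are to be read beside the above shares of all genes, and no list was tested against them. Changes and differences are given below as log2 values. Set directly against sham 24 h, IRI 24 h differed at 37.0% of genes. Of the 2707 rises 1852 were also called higher in that comparison (19.5% of all genes), 640 were not called and 215 were called lower. Of the 2067 falls 1289 were also lower directly (17.5% of all genes), 733 were not called and 45 were higher. A fit on the 16 libraries alone, without the other IRI time points, called 8341 genes in the difference and 4671 after sham surgery, so a gene named below as not called is not thereby shown to be unchanged.

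**Figure D1:**
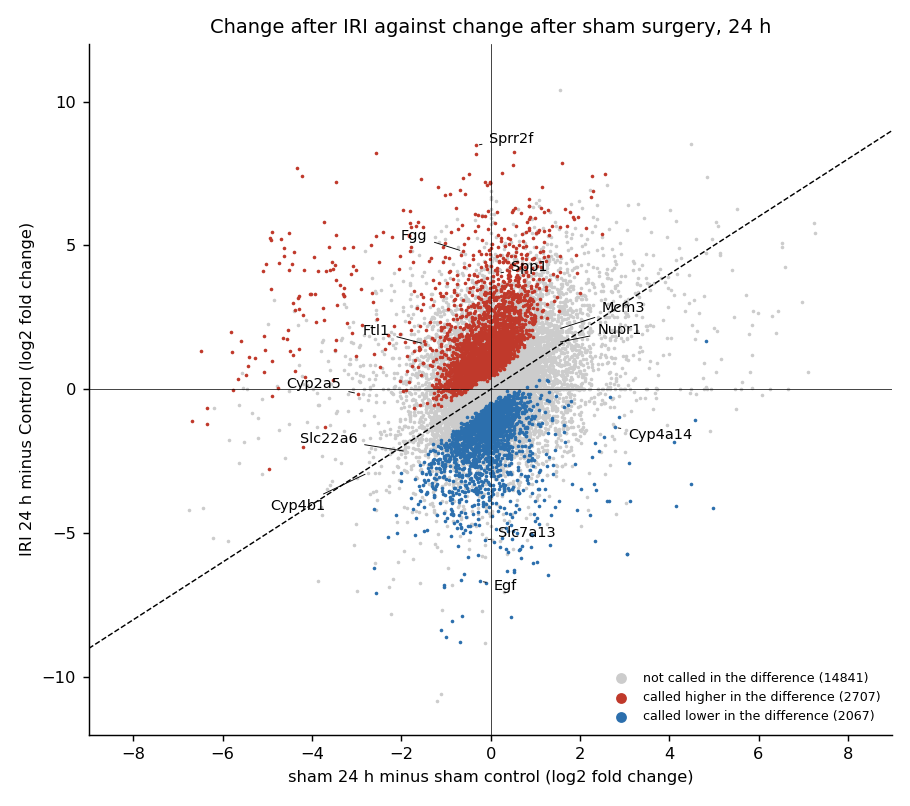
Each point is 1 of 19615 genes: the horizontal axis gives the log2 fold change of sham 24 h over sham control and the vertical axis that of IRI 24 h over Control, with a dashed line where both are equal. The 2707 red and 2067 blue genes were called higher or lower in the difference; Egf (-6.42) lies far below the line, Spp1 (3.87) far above it, and Nupr1 (0.14) close to it.

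Tubular injury genes rose after ischaemia, well beyond the change after the operation. Of 22 listed injury genes tested 21 were called higher in the difference and 0 lower, with a median of 2.77, and 2 were called higher after sham surgery, the keratin gene Krt18 and the cell-cycle inhibitor gene Cdkn1a, which lost these calls without any 1 of 5 and of 6 of the 8 sham-arm libraries. The sham calls numbered 6 with DESeq2, 4 with the length and GC correction described below and 7 in the fit on 16 libraries, all higher, and the median of the list after sham surgery was 0.43. Vcam1, an adhesion molecule of late maladaptive repair, was the exception at 0.64 (adjusted p = 0.36). Levels of Spp1, which encodes osteopontin, were 1449, 885, 838 and 1417 CPM in the Control libraries, 13877, 21695, 19792 and 19241 CPM after IRI, 628, 713, 692 and 665 CPM in the sham controls and 674, 725, 845 and 754 CPM after sham surgery. All 4 IRI libraries lay above the other 12, and the 2 sham groups overlapped. The difference was 3.87 ± 0.32 (SE), adjusted p = 1.4e-10, a 14.6-fold excess over the operation. For Krt20, a keratin of injured proximal tubule, the libraries stood at 13.1, 5.33, 5.01 and 15.3 CPM in Control and 236, 138, 282 and 246 CPM after IRI, and in the sham arm 2.59, 1.06, 3.62 and 0.446 CPM in controls and 1.44, 4.61, 1.996 and 7.404 CPM after surgery. Again the IRI libraries alone were high, and the difference was 3.59 ± 0.85 (SE), adjusted p = 0.0018. The transcription factor gene Sox9, which marks tubule cells on the way to repair, gave 2.02, 1.35, 1.53 and 1.15 CPM in the Control libraries, 47.2, 43.3, 52.02 and 43.9 CPM after IRI, 0, 0.224, 0.506 and 0.198 CPM in the sham controls and 1.02, 0.601, 0 and 0.435 CPM after sham surgery. The sham-arm libraries were near the limit of counting, where a fitted value is least certain, while every IRI library exceeded 43 CPM, a difference of 3.91 ± 0.80 (SE), adjusted p = 0.00035. Other members rose as far, among them Clu, a chaperone secreted by injured epithelium (3.71), Lgals3, which encodes galectin-3 (3.79), and Krt19 (3.41). Timp1, an inhibitor of matrix proteases, stood at 4.04 but lost its call without sham control library 4, and Cdkn1a (1.72) lost its call without sham control library 3. Sprr2f, a cornified-envelope gene, went from a mean of 0.668 CPM in Control to 243 CPM after IRI and stood under 1 CPM on average in both sham groups.

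Proximal tubule genes fell after both operations, and further after ischaemia. Of 20 markers of the S1 and S2 segments 20 were called lower after IRI and 11 after sham surgery, and 16 were lower in the difference, with a median of -1.69. The summed level of the list was 2760 to 5200 CPM after IRI and 10800 to 14300 CPM after sham surgery, so the sham kidneys also stood below both control groups. In bulk tissue fewer cells of a type and less RNA per cell cannot be told apart. The phosphate transporter gene Slc34a1 read 4930, 5846, 6193 and 5200 CPM in the Control libraries, 1118, 672, 1187 and 1125 CPM after IRI, 6131, 8669, 5892 and 8400 CPM in the sham controls and 3889, 3478, 3745 and 4315 CPM after sham surgery. The sham 24 h libraries lay below all 8 control libraries, and the IRI libraries below those. The difference was -1.52 ± 0.42 (SE), adjusted p = 0.0065, and its fall after sham surgery (-0.92, adjusted p = 0.047) lost its call when any 1 of 12 libraries was left out. Among the 12 are Control and IRI 24 h libraries, which do not enter the sham comparison. Deeper falls in the difference were found for Slc5a12, a lactate transporter (-3.94), Gatm, which makes the creatine precursor (-3.68), and Lrp2 and Cubn, the endocytic receptors megalin and cubilin (-2.95 and -2.93). Hnf4a, the transcription factor that maintains proximal tubule identity, fell by 1.84. The 4 members not called were Slc13a3, Miox and the organic anion transporter genes Slc22a6 and Slc22a8. Levels of Slc22a6 were 1177, 1366, 1537 and 1262 CPM in Control and 482, 189.5, 241 and 283 CPM after IRI, and in the sham arm 717, 1106, 758 and 898 CPM in controls and 209, 192, 229 and 318 CPM after surgery. Both operated groups lay below their controls and overlapped each other. Its difference was -0.28 ± 0.41 (SE), adjusted p = 0.69 with a 95% interval of -1.12 to 0.55, from -2.16 after IRI and -1.88 after sham surgery. For Slc22a8 the difference was -0.07 (95% interval -1.06 to 0.93), while directly it stood at -1.35.

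Markers of the S3 segment fell after ischaemia, and their summed level was also lower after the operation. All 13 S3 markers tested were called lower in the difference, with a median of -2.64, and 2 of them, the sterol hydroxylase gene Cyp7b1 and the aminoacylase gene Acy3, were also called lower after sham surgery. The amino acid transporter gene Slc7a13 stood at 1121, 1243, 1224 and 1083 CPM in the Control libraries, 32.9, 21.98, 32.98 and 35.7 CPM after IRI, 536, 463, 433 and 387 CPM in the sham controls and 418, 441, 455 and 349 CPM after sham surgery. Only the IRI libraries were low, and the sham groups overlapped, which gave -5.11 ± 0.41 (SE), adjusted p = 1.1e-10. Slc22a13 and Slc22a7, both organic anion transporters, fell (-5.49 and -4.38), and so did Slc5a8, a monocarboxylate transporter (-4.33). The median of the list after sham surgery was -0.33, and the fit on 16 libraries called 6 of the 13 lower there. The sum of the list was 1120 to 2480 CPM after IRI and 7020 to 8360 CPM after sham surgery, against 14200 to 15900 and 10300 to 12200 CPM in the respective controls. The fall of Cyp7b1 after sham surgery (-2.61) was itself deep, from a mean of 179.9 to 29.4 CPM.

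Markers of later nephron segments fell in part. In the thick ascending limb 7 of 14 markers fell in the difference and 0 rose. Egf, the growth factor of the distal tubule, was 1117, 1136, 1386 and 1166 CPM in the Control libraries, 12.96, 11.4, 12.97 and 10.1 CPM after IRI, 573, 558, 513 and 476 CPM in the sham controls and 442, 483, 351 and 518 CPM after sham surgery. The IRI libraries lay far below all others while the sham groups overlapped, and the difference of -6.42 ± 0.36 (SE), adjusted p = 1.9e-13 was the first of the falls named by rule. The Na-K-2Cl cotransporter gene Slc12a1 gave 1234, 1064, 1008 and 1257 CPM in Control and 62.6, 65.5, 66.3 and 64.7 CPM after IRI, and in the sham arm 1193, 872, 1041 and 748 CPM in controls and 1132, 1118, 1026 and 1450 CPM after surgery. No other group came near the IRI libraries, and the difference was -4.43 ± 0.39 (SE), adjusted p = 4.6e-10. Umod, which encodes uromodulin, is a case apart at 2341, 2540, 2721 and 2651 CPM in the Control libraries, 171, 405, 316 and 305 CPM after IRI, 210.5, 276, 199 and 234 CPM in the sham controls and 126, 120.1, 110.3 and 103 CPM after sham surgery. The 2 control groups differed more than 8-fold in it, both operated groups lay below their own controls, and the difference was -2.10 ± 0.26 (SE), adjusted p = 2.2e-07. Without the controls the comparison reverses, with Umod 1.38 higher in IRI 24 h than in sham 24 h. Ptger3, a prostaglandin receptor, fell by 1.57 in the difference and stood at 0.50 directly. Cldn19 and Cldn16, the claudins of paracellular magnesium transport, were not called (-0.73 and -0.11), and Cldn19 was called lower without IRI library 2. In the distal convoluted and connecting tubule 7 of 18 markers fell and 1, the Na,K-ATPase regulator gene Fxyd2, rose (1.07). Kl, which encodes Klotho, and Calb1, a calcium buffer, fell (-3.13 and -2.75). Kcnj16, a potassium channel gene, fell by 1.11 but stood at 0.23 in the direct comparison. The thiazide-sensitive cotransporter gene Slc12a3, which defines the distal convoluted tubule, was 271, 318, 331 and 298 CPM in the Control libraries, 388, 465, 285 and 339 CPM after IRI, 476, 476, 439 and 462 CPM in the sham controls and 478, 500.4, 467 and 623 CPM after sham surgery. Operated and control libraries overlapped in both arms, and the difference was 0.12 ± 0.47 (SE), adjusted p = 0.91.

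**Figure D2:**
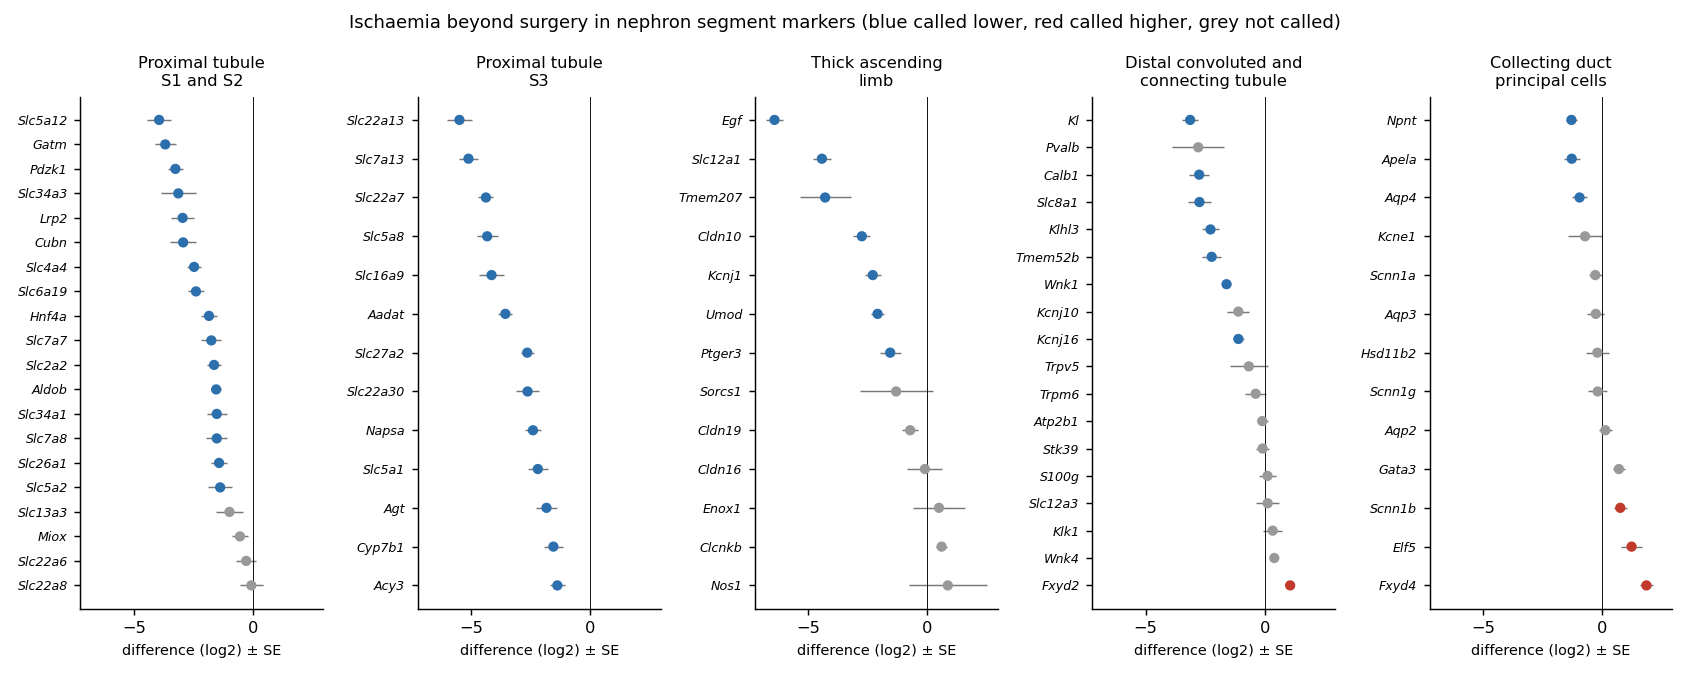
Points give the difference (log2) of each marker gene with its standard error, by nephron segment, blue where called lower, red where called higher and grey where not called; Cldn14, at or near 0 CPM in 3 of 4 groups, is not drawn. All 13 S3 markers and 16 of 20 S1 and S2 markers are blue, against 7 of 14 in the thick ascending limb and 3 of 13 in principal cells.

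Markers of the principal cells of the collecting duct rose in part with the operation. Of 13 markers 6 were called higher after sham surgery and 5 after IRI, and in the difference 3 rose and 3 fell. Directly 0 were higher and 5 lower after IRI, with a median of -0.69. Of the 3 rises 0 were also higher directly, while the 3 falls were also lower. The water channel gene Aqp4 rose by 1.27 after sham surgery and was not called after IRI (0.33), and its difference was -0.94 (adjusted p = 0.034), a call lost without any 1 of 8 of the 16 libraries. Aqp2, the vasopressin-regulated channel, rose after both (0.87 and 0.73) with a difference of 0.14 ± 0.28 (SE), adjusted p = 0.79, and its sham call was lost without any 1 of 5 sham-arm libraries. The sham count was 3 without sham control library 1 or sham 24 h library 3 and 2 without sham 24 h library 2, and the 3 rises in the difference fell to 1 without any of 7 libraries (Control 2, 3 or 4, IRI 2, sham control 1 or 2, or sham 24 h 1). In intercalated cells 2 of 13 markers rose and 3 fell, with Slc4a1, the anion exchanger also carried by red cells, at -3.04 and the proton pump subunit gene Atp6v1g3 at 1.82. Among 13 podocyte markers 3 fell, Tcf21 (-1.91), Clic5 (-1.86) and Podxl (-1.10, 0.04 directly), and 0 rose. Endothelial markers moved in both directions, 3 up and 3 down of 17, as did fibroblast and matrix genes, 4 up and 2 down of 18. Over all genes 13.8% were called higher and 10.5% lower in the difference, and none of these lists was tested against those shares. The 4 matrix rises became 2 without Control 3, IRI 1, 3 or 4, sham control 1 or sham 24 h 2.

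Part of the acute-phase and chemokine genes rose in the difference, and 2 were called after sham surgery. Of 23 complement and acute-phase genes 9 rose in the difference and 3 fell, with a median of 1.65, and 15 rose in the fit on 16 libraries. The 2 called higher after sham surgery were Saa1 and Saa2, serum amyloid genes that are near-identical copies and at or near 0 CPM in both control groups. Saa2 lost that call when any 1 of 15 libraries was left out, among them Control and IRI 24 h libraries outside the sham comparison. Fgg, the fibrinogen gamma chain gene, was 28.1, 15.6, 14.3 and 22.9 CPM in Control and 676, 267, 678 and 625 CPM after IRI, and in the sham arm 5.93, 5.15, 3.71 and 3.66 CPM in controls and 2.51, 1.603, 5.71 and 2.05 CPM after surgery. The IRI libraries were high, with library 2 well below the other 3, and the difference was 5.40 ± 0.80 (SE), adjusted p = 4.3e-06. Hp, which encodes haptoglobin, read 51.9, 27.6, 39.95 and 47.7 CPM in the Control libraries, 1728, 1110, 1535 and 1529 CPM after IRI, 55.9, 16.2, 48.4 and 38.1 CPM in the sham controls and 42.4, 48.8, 72.2 and 97.5 CPM after sham surgery. Its sham groups overlapped, and the difference was 4.43 ± 0.82 (SE), adjusted p = 0.00011. Serpina3n, a protease inhibitor, Lrg1, a leucine-rich acute-phase protein, and Socs3, the feedback inhibitor of STAT3 signalling, rose by 4.68, 5.35 and 4.04. C4b rose by 3.13, while Cfb, the alternative-pathway factor B, and the C1 inhibitor gene Serping1 fell (-4.34 and -1.07). C3 itself was at 1.07 (adjusted p = 0.07) and was called without IRI library 2 or sham control library 2. Of 21 cytokine and chemokine genes tested 7 rose and 2 fell in the difference, and 0 were called after sham surgery. Cxcl1, a neutrophil chemoattractant, stood at 1.69, 1.35, 0.487 and 2.01 CPM in the Control libraries, 189, 116, 105 and 143 CPM after IRI, 2.49, 1.79, 4.59 and 2.28 CPM in the sham controls and 2.81, 4.31, 7.15 and 6.097 CPM after sham surgery. IRI libraries exceeded all others by an order of magnitude, and the difference was 5.78 ± 0.84 (SE), adjusted p = 3.8e-06. Lif, a gp130 cytokine, and Csf1, the macrophage growth factor, rose by 3.88 and 2.31. Cxcl12, the stromal retention chemokine, fell (-3.10), and so did Cx3cl1 (-0.96, 0.33 directly). The 7 rises became 4 without sham control library 3 or 4, with Ccl7 losing its call without library 4 and Cxcl2 without library 3. Il6, Il1b and Ccl2 were among the names left out.

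Leukocyte markers gave a mixed picture. Neutrophil genes summed to 31.9 to 74.0 CPM after IRI and to 8.03 CPM or less in every other library, 7 of 10 were called after IRI and 0 after sham surgery, yet 1 was called in the difference. S100a9, a calprotectin subunit, stood at 1.69, 1.21, 1.11 and 2.01 CPM in Control and 9.1, 24.9, 10.1 and 8.998 CPM after IRI, and in the sham arm 0.1995, 0, 0 and 0.09899 CPM in controls and 0.957, 0, 1.76 and 0 CPM after surgery. IRI libraries lay above all others, with library 2 highest, and 4 of the 8 sham-arm libraries were at 0. It was not called in the difference (adjusted p = 0.98), a value that rests on the near-0 counts of the sham arm and for which no fold is given, and it was higher in IRI 24 h than in sham 24 h without controls (adjusted p = 0.00021). The member called, Csf3r, which encodes the G-CSF receptor (3.47, adjusted p = 0.037), lost its call when any 1 of 12 libraries was left out. Of 20 macrophage and monocyte genes 7 rose and 1 fell in the difference, while their sum was 501 to 519 CPM in Control, 391 to 565 CPM after IRI, 310 to 395 CPM in sham controls and 272 to 310 CPM after sham surgery. The IRI range covered that of Control, and the sham 24 h libraries lay at or below the sham controls. Directly 14 of the 20 were higher after IRI and 1 lower. The rises include the integrin gene Itgam (4.37), the lysosomal marker gene Cd68 (2.77) and Plac8 (1.98), and Lyz2 (1.41) without a call when sham 24 h library 1 was left out. The fall was Csf1r, the receptor of Csf1, at -2.57. Cd74, the class II invariant chain, and H2-Ab1, a class II chain of antigen presentation, fell after both operations instead. Levels of H2-Ab1 were 95.9, 107, 108 and 89.2 CPM in the Control libraries, 19.7, 28.9, 32.2 and 33.6 CPM after IRI, 68.7, 52.2, 69.5 and 50.6 CPM in the sham controls and 23.7, 9.77, 16.9 and 18.04 CPM after sham surgery. Operated libraries lay below controls in each arm, and the difference was 0.02 ± 0.45 (SE), adjusted p = 1 with a 95% interval of -0.89 to 0.93. No lymphocyte gene of 11 was called in any of the 3 comparisons. Of 22 interferon-stimulated genes 5 rose, led by Oas2 (3.22), and Rsad2 fell (-1.72) with a call lost without any 1 of 14 libraries, a count of 3 and 0 with the length and GC correction described below and of 9 and 2 in the fit on 16 libraries.

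Genes of the NRF2 antioxidant programme rose in the IRI arm and many fell in the sham arm. Of 23 tested 15 rose and 4 fell in the difference, 15 rose and 3 fell after IRI, and 2 rose and 9 fell after sham surgery. Hmox1, which encodes haem oxygenase 1, was 32.2, 33.8, 39.95 and 39.99 CPM in the Control libraries, 382, 188, 254 and 284 CPM after IRI, 18.9, 23.2, 25.2 and 21.04 CPM in the sham controls and 8.55, 14.9, 15.2 and 11.4 CPM after sham surgery. IRI raised every library above 180 CPM and the sham libraries lay below their controls without a call (-0.81, adjusted p = 0.16), for a difference of 3.74 ± 0.49 (SE), adjusted p = 6.6e-07. Srxn1, a sulfiredoxin, gave 100.5, 85.5, 90.6 and 103 CPM in Control and 732, 423, 630.2 and 616 CPM after IRI, and in the sham arm 44.3, 44.7, 43.5 and 62.7 CPM in controls and 34.3, 29, 42.7 and 35.9 CPM after surgery. Its sham groups were close, and the difference was 3.12 ± 0.52 (SE), adjusted p = 2.3e-05. The ferritin light chain gene Ftl1 moved in opposite directions, at 1393, 1773, 1713 and 1694 CPM in the Control libraries, 5359, 4720, 4534 and 4980 CPM after IRI, 666, 934, 679 and 852 CPM in the sham controls and 268, 222, 297 and 342 CPM after sham surgery. Each of the 4 groups was separate from the others, and the rise of 1.58 after IRI and fall (-1.47) after sham surgery gave a difference of 3.05 ± 0.22 (SE), adjusted p = 3.4e-11. Fth1, the ferritin heavy chain, followed the same pattern (0.51, -1.56 and a difference of 2.06), and so did the pentose phosphate enzyme gene Taldo1 (2.48) and Gstp1 (2.84). Gclc, the catalytic subunit of glutathione synthesis, did the reverse at 366, 456, 575 and 405 CPM in Control and 373, 443, 353 and 380.0 CPM after IRI, and in the sham arm 389, 408, 360.5 and 345 CPM in controls and 789.7, 1334, 811 and 1217 CPM after surgery. The sham 24 h libraries all lay above the other 12 and IRI overlapped Control, a difference of -1.69 ± 0.36 (SE), adjusted p = 0.00051. The other falls were Cat, which encodes catalase (-1.13), Me1 (-1.41) and Gclm (-0.70, 0.01 directly), the last without a call when IRI library 2 was left out. Gsta1 and Slc7a11 rose from levels near the limit of counting, and Gsta1 has a near-identical copy.

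Most ATF4 targets of the integrated stress response and most immediate early genes rose after IRI, and fewer were called after sham surgery. Of 23 ATF4 targets 12 rose and 2 fell in the difference, 16 rose after IRI and 4 after sham surgery. Trib3, a pseudokinase induced by ATF4, was 1.495, 1.35, 1.53 and 1.65 CPM in the Control libraries, 35.9, 20.1, 23.5 and 24.4 CPM after IRI, 1.95, 1.57, 2.11 and 0.9899 CPM in the sham controls and 5.74, 2.905, 1.11 and 1.74 CPM after sham surgery. IRI libraries exceeded 20 CPM and none of the others 6 CPM, and the difference was 3.31 ± 0.67 (SE), adjusted p = 0.00032. Atf5, Ddit3, which encodes CHOP, and the mitochondrial folate enzyme gene Mthfd2 rose by 2.51, 2.41 and 2.22. Nupr1, a stress-induced chromatin protein of the same list, was raised by both operations, at 38.5, 27.6, 24.99 and 41.2 CPM in Control and 87.5, 149, 80.4 and 91.1 CPM after IRI, and in the sham arm 76.8, 60.3, 75.96 and 64.7 CPM in controls and 203, 227, 209 and 139.5 CPM after surgery. The difference was 0.14 ± 0.34 (SE), adjusted p = 0.84 with a 95% interval of -0.56 to 0.83, and without controls Nupr1 stood at -0.93, lower after IRI. Of 22 immediate early genes 18 rose after IRI, 7 after sham surgery and 10 in the difference. Fos, Jun and Egr1 rose after both operations, Fos by 2.10 and 1.75, and were not called in the difference (0.35, 0.48 and 0.16). The sham call of Fos was lost without sham control library 2 and that of Egr1 without any 1 of 5 sham-arm libraries. Atf3 (3.51), the MAP kinase phosphatase gene Dusp5 (3.89), Myc (2.52) and Klf4 (2.21) rose in the difference, and none of these 4 was called after sham surgery. The 7 sham calls fell to 1 without sham control library 2, to 3 without sham 24 h library 1 and to 4 without sham control library 3 or 4 or sham 24 h library 2.

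Necroptosis and apoptosis genes rose with ischaemia in part of their members. Of 25 cell death genes 10 rose and 1, Bid, fell (-0.97), with a median of 0.82, and sham surgery moved 1 up, Ptgs2, and 1 down, Gpx4. Mlkl, the pore-forming effector of necroptosis, was 3.64, 2.35, 2.44 and 2.44 CPM in the Control libraries, 27.4, 22.9, 25.1 and 25.1 CPM after IRI, 2.69, 0.5602, 1.31 and 2.92 CPM in the sham controls and 2.51, 4.21, 0.929 and 0.124 CPM after sham surgery. All IRI libraries exceeded 22 CPM and no other library 5 CPM, and the difference was 3.15 ± 0.80 (SE), adjusted p = 0.0033. Ripk3, the kinase that activates it, rose by 2.75 and Pycard, the inflammasome adaptor, by 2.21, while Ripk1 was not called (-0.51). Gpx4, which guards against ferroptosis, was called higher in the difference (1.11) and fell after sham surgery (-0.91) without a call after IRI (0.20). Of 20 p53 targets 4 rose, Gdf15 (3.26), Plk3 (2.86), Bax (1.96) and Cdkn1a, and 3 fell, Sesn1 (-1.58), Ccng1 (-0.86, 0.62 directly) and Trp53inp1 (-0.85), whose call was lost without Control 1 or 4, IRI 2 or sham 24 h 3. The fit on 16 libraries gave 8 rises and 4 falls.

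Part of the cell cycle genes rose after each operation. Of 27 genes tested 11 rose after IRI (median of the list 1.07) and 10 after sham surgery (median 1.12), and the difference called 2 higher and 0 lower, with a median of -0.10. Mcm3, a subunit of the replicative helicase, stood at 8.19, 7.46, 6.26 and 9.17 CPM in Control and 28.8, 51.2, 25.9 and 26.02 CPM after IRI, and in the sham arm 2.49, 5.15, 3.54 and 3.17 CPM in controls and 11.96, 10.9, 7.29 and 10.3 CPM after surgery. Operated libraries lay above controls in each arm, with IRI library 2 the highest of all, and the difference was 0.59 ± 0.49 (SE), adjusted p = 0.45. The mitotic kinase gene Cdk1 and the topoisomerase gene Top2a were not called in the difference (-1.18 and -0.95). The 2 called were Pcna, the sliding clamp (1.32), and Tk1, a nucleotide salvage kinase (1.40), neither of which was called after sham surgery. Mki67 was left out of the join and rose after sham surgery in the sham table, from 114 to 214 counts in controls to 399 to 569. The sham count of 10 was 6 without sham control library 1, 3 or 4 or sham 24 h library 4 and 4 without sham control library 2 or sham 24 h library 2.

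**Figure D3:**
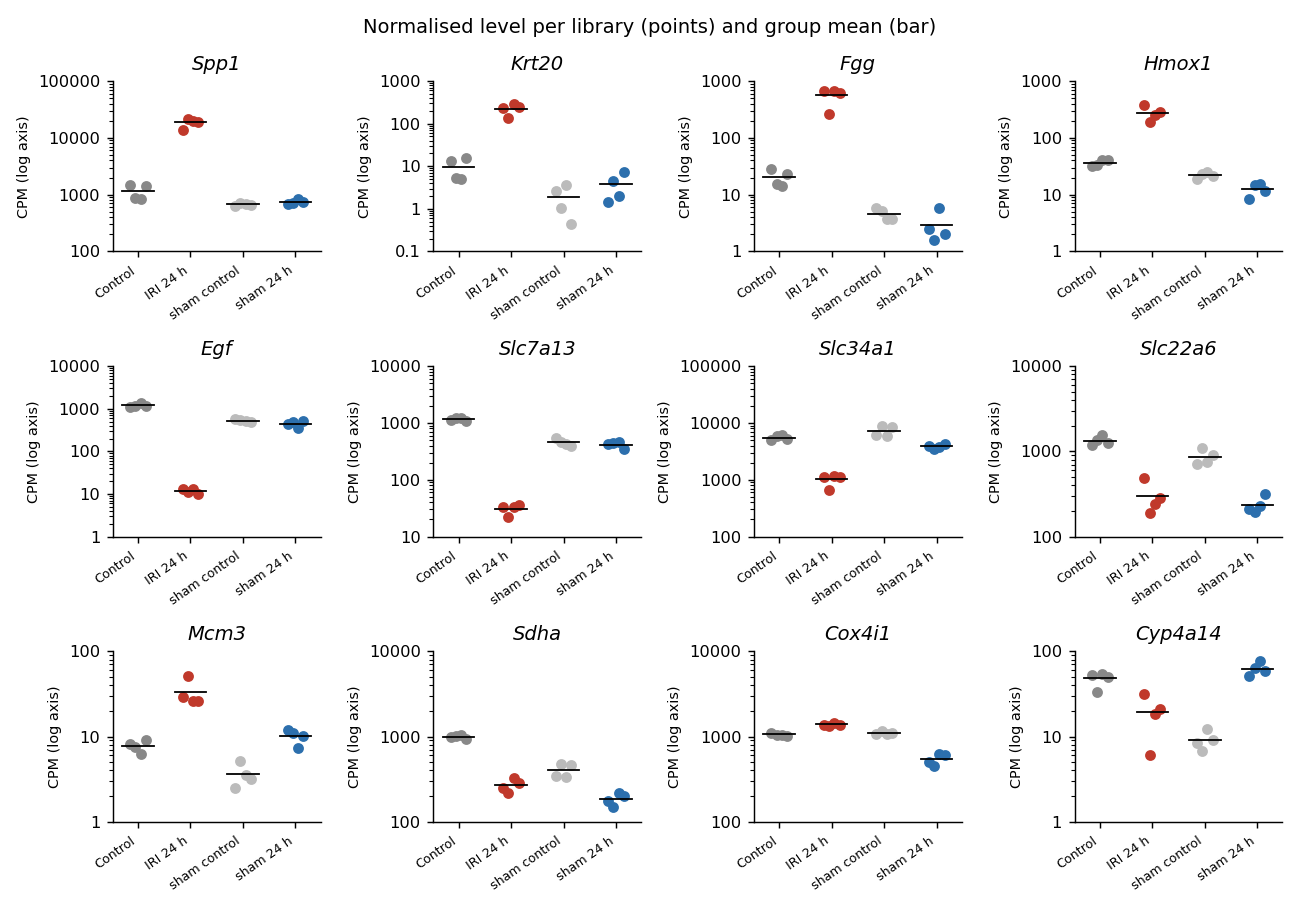
Each panel plots 1 gene in CPM on a log axis, with a point per library and a bar at the group mean. Spp1, Krt20, Fgg and Hmox1 are high in the 4 IRI libraries, Egf and Slc7a13 low in them, Slc34a1 and Slc22a6 low in both operated groups, and Mcm3 high in both, while Cyp4a14 rises after sham surgery.

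Respiratory chain transcripts fell after the operation and were higher or not called, with 3 exceptions, in the difference. Of 52 nuclear genes of complexes I to V 49 fell after sham surgery and 0 rose, with a median of -0.73, while after IRI 22 fell and 8 rose (median -0.21). In the difference 26 rose and 3 fell. Cox4i1, a subunit of complex IV, was 1108, 1052, 1046 and 1025 CPM in the Control libraries, 1376, 1340, 1453 and 1381 CPM after IRI, 1059, 1153, 1081 and 1101 CPM in the sham controls and 507, 446, 624 and 600.5 CPM after sham surgery. The sham 24 h libraries were the lowest 4 and the IRI libraries the highest 4, and the difference was 1.40 ± 0.16 (SE), adjusted p = 5.1e-08. Ndufa2 and Ndufa1 of complex I rose further in the difference (1.88 and 1.70). Sdha, the flavoprotein of complex II, was 976, 1012, 1054 and 943 CPM in Control and 252, 219.9, 328 and 288 CPM after IRI, and in the sham arm 339.9, 478, 332 and 458 CPM in controls and 175, 148, 220.0 and 202 CPM after surgery. It fell after both operations (-1.87 and -1.11), and the difference of -0.76 ± 0.23 (SE), adjusted p = 0.014 lost its call with the length and GC correction (-0.61, adjusted p = 0.054). Without the controls Sdha stood at 0.55. Uqcrc2 of complex III (-0.90, 0.50 directly) and Ndufs1 of complex I (-1.70) were the other falls, and the ATP synthase genes Atp5a1 and Atp5b, at -0.39 and -0.28, were not called, although Atp5a1 was without sham control library 2 or sham 24 h library 1. The falls numbered 5 without sham control library 2 and 5 with DESeq2. A correction for transcript length and GC content, added after the data had been seen, moved the count to 14 rises and 7 falls.

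Transcript length moved with the difference over all genes. Across the 18662 genes with a known length, Spearman's rho between the length of the longest transcript and the difference was -0.26, against -0.21 for IRI and 0.11 for sham surgery, over genes of the same libraries, which are not independent. Of 5 equal groups of genes by length, the shortest (up to 1467 bases) had a median difference of 0.78 and the longest (4853 bases and more) of -0.36. The respiratory chain genes have short transcripts, with a median of 1232 bases, and their rise went with shortness (rho of -0.57 across the list). Cytosolic ribosomal protein genes are shorter still, with a median of 1120 bases, and all 35 tested rose in the difference (median 1.91) and after IRI (median 1.46), while 26 fell after sham surgery (median -0.50). Rplp1, a protein of the ribosomal stalk, was 711, 650.5, 609 and 650.2 CPM in the Control libraries, 2050, 2462, 2087 and 2034 CPM after IRI, 586, 596, 631 and 572 CPM in the sham controls and 393, 399.8, 441 and 395 CPM after sham surgery. IRI libraries were the highest, library 2 above the other 3, and sham 24 h libraries the lowest, for a difference of 2.27 ± 0.19 (SE), adjusted p = 1.6e-10. With the correction all 35 were still called higher, Rplp1 at 1.44, and over all genes 2695 rises (13.7%) and 1598 falls (8.15%) were called. Among the genes named here it ended the calls of Aqp4, Atf6, Fgfr1, Gclm, Gpx4, Hif1a, Met, Mfn1, Opa1, Rsad2, Sdha and Trp53inp1 in the difference. Ribosomal protein genes have many processed pseudogenes, so their counts are uncertain where reads could be split between copies. The shares of mitochondrial ribosomal and small nucleolar RNA, given above, also differed between the groups, and their part in these shifts was not tested.

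**Figure D4:**
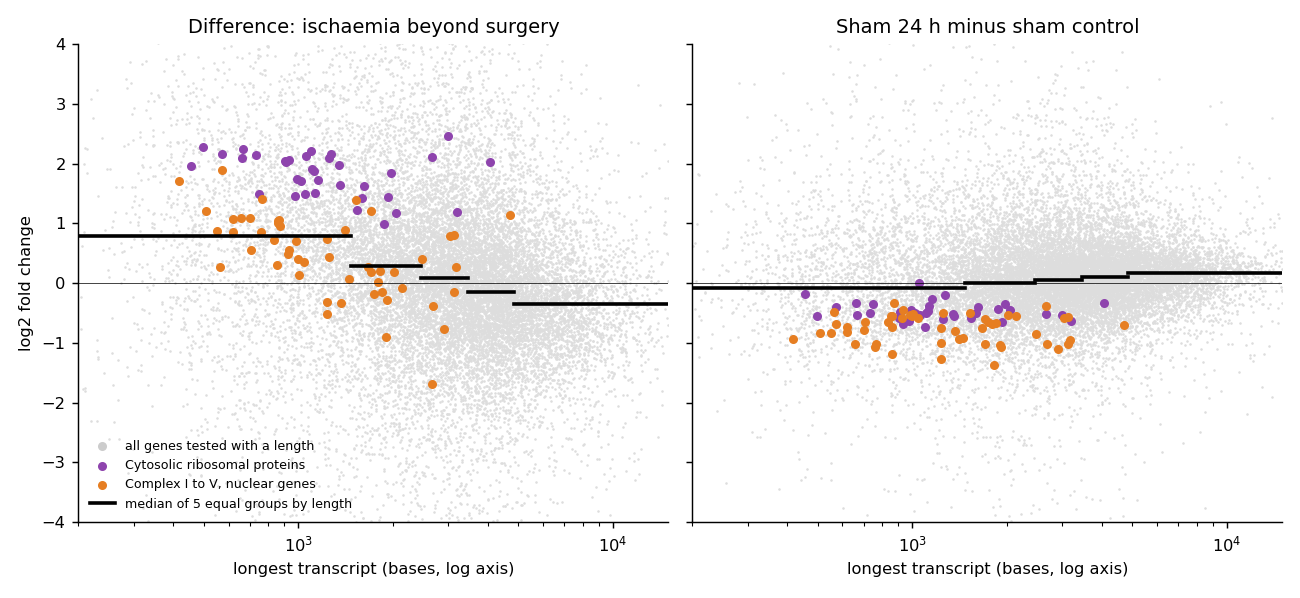
Log2 fold change against the length of the longest annotated transcript (log axis) for the difference (left) and for sham 24 h minus sham control (right); grey points are genes, purple the 35 ribosomal protein genes, orange the 52 respiratory chain genes, and black bars the medians of 5 equal groups of genes by length; genes beyond the axes are not drawn. On the left the bars step down from 0.78 to -0.36, and both coloured groups lie mostly above 0, while on the right they lie below it.

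Fatty acid oxidation fell with ischaemia, in part beyond the operation. Of 33 genes 22 fell after IRI, 12 after sham surgery and 12 in the difference, with 2 rises, while directly 12 were higher and 7 lower, with a median of 0.22. Acadm, the medium-chain acyl-CoA dehydrogenase gene, was 1461, 1450, 1484 and 1404 CPM in the Control libraries, 312, 203, 274 and 265 CPM after IRI, 1018, 894, 995 and 779 CPM in the sham controls and 889, 824, 957 and 1002 CPM after sham surgery. Only IRI lowered it, the sham groups overlapped, and the difference was -2.46 ± 0.25 (SE), adjusted p = 5.7e-09. The receptor gene Ppara itself and Ehhadh, a peroxisomal enzyme, fell (-3.36 and -2.41). Hadh, Echs1 and Acads fell after both operations and were not called in the difference (-0.65, -0.49 and 0.28), but Hadh was without IRI library 3, sham control library 2 or sham 24 h library 1. Plin2, which coats lipid droplets, rose by 3.76 and the electron carrier gene Etfb by 2.03. Of the list 3 genes rose after sham surgery, among them Cyp4a14, a fatty acid hydroxylase, at 53.4, 33.5, 54.8 and 50.2 CPM in Control and 31.9, 6.03, 18.4 and 20.8 CPM after IRI, and in the sham arm 8.48, 6.72, 12.1 and 9.06 CPM in controls and 50.7, 64.2, 76.8 and 58.2 CPM after surgery. All sham 24 h libraries lay above their controls, and the IRI libraries lay below Control. The difference was -4.10 ± 0.45 (SE), adjusted p = 3.1e-08, with near-identical Cyp4a copies as a limit.

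Part of the sterol synthesis genes fell in the difference, and central carbon metabolism was divided. Of 20 sterol genes 9 fell in the difference, 13 after IRI and 5 after sham surgery, and 0 rose in the difference. Directly 5 were higher and 5 lower after IRI, with a median of 0.27, and 5 of the 9 were also lower directly. Hmgcs1, which makes HMG-CoA, was 575, 581, 634 and 603 CPM in the Control libraries, 157, 120.1, 128 and 131 CPM after IRI, 555, 605, 569 and 466 CPM in the sham controls and 496, 573, 543 and 599.6 CPM after sham surgery. The sham groups overlapped and every IRI library lay below all others, a difference of -2.17 ± 0.32 (SE), adjusted p = 4.8e-06. Cyp51 fell (-2.68), while for Idi1, with a difference of -2.64, the direct value was 0.52. The sham count of 5 became 3 without sham control library 2 or sham 24 h library 1 or 2, and 2 without sham 24 h library 4. Of 24 genes of glycolysis and gluconeogenesis 9 rose and 8 fell. The gluconeogenic genes G6pc, which releases glucose (-3.37), and Pcx (-1.75) fell, and the hexokinase gene Hk2 (2.24) and Aldoa (1.39) rose. Gapdh had a difference of 7.19, but its Control mean was 3.84 CPM, the IRI libraries ranged from 100.4 to 1203 CPM and the gene has many pseudogenes, so the value is uncertain. Among 21 hypoxia-response genes 3 rose and 7 fell, Car9 foremost (-2.89). Hif1a was called lower in the difference (-0.76) and rose after sham surgery (1.07) without a call after IRI (0.31). With the length and GC correction the 7 falls became 4, and directly 9 were higher and 5 lower.

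The coactivator that drives mitochondrial biogenesis fell with ischaemia. Ppargc1a, which encodes PGC1A, was 79.4, 76.1, 76.7 and 75.4 CPM in Control and 25.3, 21.2, 27.7 and 24.1 CPM after IRI, and in the sham arm 68.5, 54.4, 58.6 and 55.3 CPM in controls and 40.5, 50.2, 47.03 and 67.9 CPM after surgery. IRI libraries lay well below all others, the sham groups overlapped, and the difference was -1.44 ± 0.30 (SE), adjusted p = 0.00042. Its partners among the nuclear receptors, Esrrb and Esrrg, fell (-2.28 and -2.15), as did the mitochondrial deacetylase gene Sirt3 (-1.84). Pprc1, a serum-responsive member of the family, was called higher in the difference and rose by 1.99 after IRI. In all 7 of 20 genes of the list fell and 2 rose in the difference, and 0 were called after sham surgery. Tfam, the packaging factor of mitochondrial DNA, was 69.1, 72.5, 66.4 and 71.7 CPM in the Control libraries, 37.9, 31.9, 34.6 and 34.6 CPM after IRI, 43.1, 50.2, 36.3 and 42.7 CPM in the sham controls and 35.8, 30.9, 19.9 and 29.6 CPM after sham surgery. Both operated groups lay below their controls, Tfam was called after IRI (-1.01) and not after sham surgery (-0.57, adjusted p = 0.15), and the difference was -0.44 ± 0.34 (SE), adjusted p = 0.39. Its 95% interval of -1.13 to 0.25 includes both no difference and a further fall of that size.

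Sham surgery moved some genes that were not called after IRI and others that also moved there. A total of 42 genes rose and 207 fell after sham surgery, were not called after IRI and were called in the difference in the opposite sense. Cyp2a5, a coumarin hydroxylase with the near-identical copy Cyp2a4, was 186, 181, 144 and 184 CPM in the Control libraries, 238, 126, 118 and 146 CPM after IRI, 145, 244, 156 and 204 CPM in the sham controls and 11.8, 23.1, 35.3 and 25.1 CPM after sham surgery. The sham 24 h libraries lay far below all others, IRI overlapped Control, and the difference was 2.82 ± 0.51 (SE), adjusted p = 7.4e-05. Azgp1, a lipid-mobilising glycoprotein, fell after both operations but further after sham surgery (-1.99 and -4.20, a difference of 2.22), as did Cyp4a12a (-1.31 and -3.71). The glucuronosyltransferase gene Ugt1a7c fell after both (-4.37 and -3.78) and was not called in the difference (-0.59, directly 2.70). Nat8f5 fell by 3.53 after sham surgery and was not called after IRI (0.32). On the rising side were Prlr, the prolactin receptor gene (2.67, -0.27 after IRI), Slc6a12, a betaine transporter (1.81, -0.39 after IRI, with the sham call lost without sham control library 4), and Akr1b8, an aldo-keto reductase, which rose further after IRI (1.95 and 4.03). The number of sham rises depended on the fit and the library. It was 467 with all libraries, 176 to 276 with 1 sham control library left out, 211 to 334 with 1 sham 24 h library left out, 956 of 2361 calls with DESeq2 and 1820 in the fit on 16 libraries.

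Some genes changed alike after both operations. Called in both comparisons in 1 direction, with a 95% interval of the difference inside -1 to 1, were 85 genes that rose and 276 that fell. Cyp4b1, another microsomal hydroxylase, led the falls at 3310, 3618, 3809 and 3441 CPM in Control and 584, 242, 553 and 527 CPM after IRI, and in the sham arm 1532, 2576, 1507 and 2217 CPM in controls and 323, 224, 268 and 358 CPM after surgery. Operated libraries lay below controls in each arm, and the difference was -0.16 ± 0.35 (SE), adjusted p = 0.82. Without controls it stood at 0.70. Ttr, which encodes transthyretin (-1.97 and -1.91), Paqr7, a progestin receptor (-1.87 and -1.92), and Cltrn, the transporter chaperone collectrin (-2.05 and -1.74), fell by nearly equal amounts. Wnt4, a ligand of nephron and collecting duct development (1.47 and 1.25), and Slc7a1, a cationic amino acid transporter (1.19 and 1.23), rose alike, although directly Wnt4 stood at -1.76, lower after IRI.

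Other genes moved in opposite directions and were called in the difference, with 293 genes higher after IRI and lower after sham surgery and 44 the reverse. The 293 were 22.2% of the sham falls, near the 20.9% of all genes called higher after IRI, and the 44 were 9.42% of the sham rises, against 17.9% of all genes called lower after IRI. Neither share was tested, and the number of sham rises depended on the fit as given above. Gpx1, the cytosolic glutathione peroxidase gene, rose by 1.65 after IRI and fell by 1.72 after sham surgery, a difference of 3.37 ± 0.29 (SE), adjusted p = 3.1e-10. Timd2, a ferritin receptor (1.23 and -2.62), and Tmem252 (1.65 and -1.93) followed, both called in the same sense. In the other direction Cpm, a carboxypeptidase (-2.79 and 0.88), and the motor protein gene Myo5a (-2.37 and 0.92) fell after IRI and rose after sham surgery.

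Among the rises under the naming rule were Clcf1, a gp130 cytokine (4.61), Krt5, a basal keratin (4.56), Tnfrsf12a, the TWEAK receptor gene (4.33), and Msln, which encodes mesothelin (4.32). The falls beside Egf and the S3 transporters included Uroc1, an enzyme of histidine breakdown (-5.51), Mep1b, a brush-border protease (-5.16), and Rnf24 (-5.42). Cep85, a centrosomal protein gene, had a difference of 5.74, at 119 to 145 CPM in Control, 9637, 9931, 9954 and 9970 CPM after IRI, 442, 359.9, 463 and 339.5 CPM in sham controls and 631, 627, 507 and 491 CPM after sham surgery. Of the counts of the names analysed, it took up 0.933 to 1.0% in the IRI 24 h libraries and 9.77 to 12.9% at 72 h. Grp and Vgf, secreted neuropeptide precursors, were at 24.8, 45.02, 40.5 and 37.5 and 33.8, 88.6, 43.03 and 50.2 CPM after IRI and under 1 CPM in every other library. Vgf was called in the difference (adjusted p = 0.00024) and Grp was not (adjusted p = 0.18), and no fold is given for either, since the other groups held almost no counts.

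Markers of tissues next to the kidney moved with the groups, and their part in the results above was not tested. Of 10 adipose genes tested 5 were called higher and 1 lower after IRI, and 2 were called lower after sham surgery. In the difference 8 were called higher and 0 lower. The sum of 9 of the 10 was 2170 to 4400 CPM after IRI against 649 to 988 in Control. It was 940 to 1670 CPM in sham controls and 587 to 1210 after sham surgery. Fabp4, the fatty acid binding protein of adipocytes and capillary endothelium, was 308, 195, 173 and 269.8 CPM in the Control libraries, 1594, 880.5, 1538 and 1447 CPM after IRI, 486, 272, 493 and 451 CPM in the sham controls and 244, 213, 256 and 353 CPM after sham surgery. IRI libraries were high, library 2 least so, and the difference was 3.20 ± 0.37 (SE), adjusted p = 8.1e-08. Cfd, or adipsin, and Cidec, a lipid droplet protein, rose by 3.38 and 3.46, while Plin1 was not called (2.18) unless IRI library 2 was left out. Adrenal genes varied widely within groups, with sums of 157 to 435 CPM in Control, 84.2 to 115 after IRI, 121 to 633 in sham controls and 72.8 to 362 after sham surgery, and 4 of 10 were at 0 in all IRI libraries. The 1 adrenal gene called in the difference, Hsd3b1, lost its call in 10 of 16 fits that left out 1 library, while 6 of the 10 were called lower without sham control library 4. Red cell genes were called higher after sham surgery in 5 of 8 and lower in the difference in 2, Slc4a1 and Hbb-bt, with globin copies that cannot be told apart. The call of Hbb-bt was lost without IRI library 3 or sham 24 h library 1. Leaving out IRI library 1 gave 6 falls, the length and GC correction gave 5, and the sham calls became 1 to 3 without any 1 sham-arm library other than sham 24 h library 3.

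Several further lists held both rises and falls. Among all genes tested 13.8% were called higher and 10.5% lower in the difference, and no list was tested against these shares. Of 17 genes of endoplasmic reticulum stress 2 rose in the difference, Creld2 and Manf (1.26 and 2.11), and 6 fell, among them the stress sensor gene Atf6 (-1.23), while 6 fell after sham surgery. The 6 falls in the difference became 2 with the length and GC correction, and directly 6 were higher and 1 lower. Of 15 heat shock genes 4 rose and 2 fell, with Hspb1, a small heat shock protein, at 2.85 and Hsph1 at -1.64. Of 24 growth factors of repair and their receptors 5 rose, including the platelet-derived growth factor gene Pdgfb (0.89), and 5 fell, including Met, the receptor of hepatocyte growth factor (-0.90, 0.11 directly), and the FGF receptor gene Fgfr1 (-0.64), with 3 falls in place of 5 after the length and GC correction. In mitochondrial dynamics and mitophagy 3 of 18 rose and 6 fell, with the fusion genes Mfn1, Mfn2 and Opa1 at -0.84, -0.70 (directly 0.34) and -1.20 and the autophagy receptor gene Sqstm1 at 1.22. With the length and GC correction 5 of these rose and 4 fell, and directly 8 were higher and 4 lower. Among 19 clock genes 4 rose and 5 fell, with Per1 at 2.18 and Hlf at -1.96, with 3 falls in place of 5 after the length and GC correction, and the time of day at which kidneys were taken is not given in the labels.

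**Figure D5:**
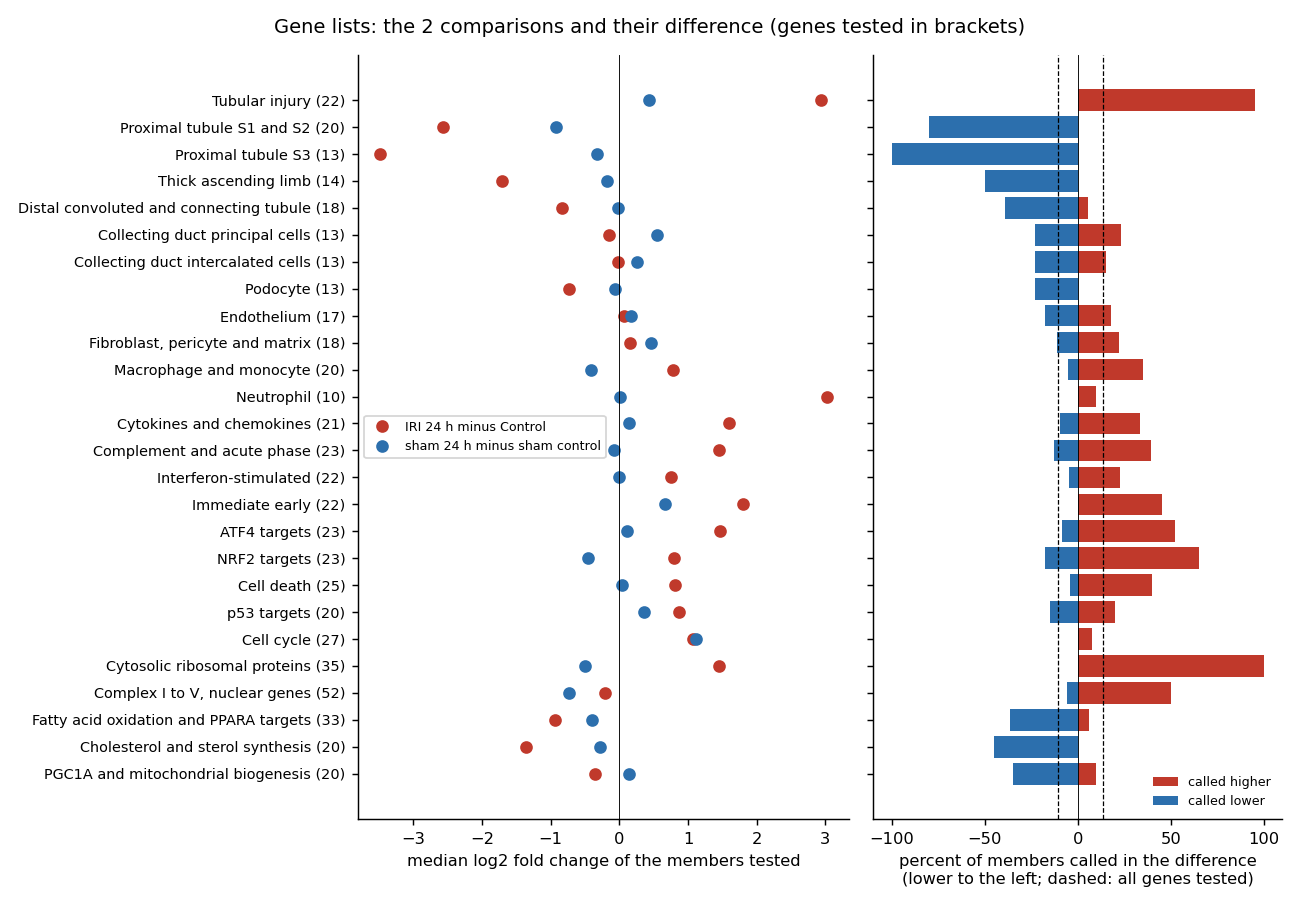
The left panel plots the median log2 fold change of each gene list after IRI (red) and after sham surgery (blue), and the right panel the percentage of its members called higher (right of 0) or lower (left of 0) in the difference, with dashed lines at the 13.8% and 10.5% of all genes. Injury, ribosomal and NRF2 lists stand out to the right, proximal tubule lists to the left, and the cell cycle list, with medians of 1.07 and 1.12, has 2 of 27 members called.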

How the data were processed

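RNA-seq was done on total RNA of whole mouse kidney, extracted with the RNAeasy minikit, per the labels' protocols. The deposited files hold raw counts per gene name, which the authors made with HTSeq on mm39 (GRCm39), per the submitters' processing notes, which also name DESeq2. The aligner and the strand setting are not given in the sources used here. The temporal and sham tables were joined by gene name after repeated names were collapsed. Names whose Control counts differ between the temporal and therapy tables were left out. In all 86 names were left out, with those found in 1 table only, sharing another name's counts or repeated with different counts. Leaving out the 5 names with shared counts and the repeated name, Ccl2, went beyond the rule on Control counts. Slc6a18, an S3 marker, is among the 5, as is Ccl20, whose omission was decided after its counts were seen. Columns of the sham table name a group but not a sample, so those libraries are numbered by column.

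Counts were fitted with edgeR 4.0.16 (quasi-likelihood test, TMM, filterByExpr, R 4.3.3) on 28 libraries, the 16 described here and those of the IRI groups at 6, 48 and 72 h, which share the estimate of the spread. Calls required a p below 0.05 after Benjamini-Hochberg adjustment over all 19615 genes tested, and every adjusted p in the text is from this fit unless another tool is named. Intervals are at 95%. CPM values use TMM over the names analysed. DESeq2 1.42.0, DESeq2 size factors, other filters, thinned counts, left-out libraries and a replicate block were alternatives, and a length and GC correction was added after the data had been seen, with transcript lengths matched by symbol for 95.1% of genes from an annotation of another build. On simulated counts of the difference, 200 of 18191 genes changed, 14% of 2-fold and 56% of 4-fold changes were called, with 4 false calls. All simulated libraries shared the mean levels of the 2 control groups, and genes changed in IRI 24 h only. The simulation held no gap between the control groups and no change after sham surgery. Its false calls therefore do not measure the error rate in the real data.

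Genes named by rule are the 12 largest rises and 12 largest falls of the difference, 8 and 8 of the sham comparison, and 6 per shared or opposite class. All of these had a mean log2 CPM no lower than 3. Groups that do not overlap were required for the difference and sham genes but not for the shared or opposite classes. Up to 4 called and 2 uncalled members of each of 45 gene lists were added. Some further list members were chosen after their values were seen. The comparison and the lists were chosen with earlier results of these data known. Some members of the lists are not reported here.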

Additional observations from a re-analysis of the deposited data

Results flagged for a closer look

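In 11 of the 136 groups of 4 libraries looked at, 1 library lay far from the other 3 for its range, where chance gives about 1 in 20. Library 2 of the IRI 24 h group accounted for 7 of them. It had 672.1 CPM of Slc34a1 against 1118 to 1187 in the others, 266.9 CPM of Fgg against 625.1 to 677.8, and 242.1 CPM of Cyp4b1 against 527.3 to 584.1. It was higher in S100a9 (24.92 CPM against 8.998 to 10.12), Mcm3 (51.19 against 25.86 to 28.84), Rplp1 (2462 against 2034 to 2087) and Nupr1 (149 against 80.43 to 91.07). The other 4 were Srxn1 in sham control library 4 (62.66 CPM against 43.46 to 44.7), Mlkl in Control library 1 (3.64 against 2.345 to 2.437), Rplp1 in sham 24 h library 3 (441 against 393.1 to 399.8) and Cyp2a5 in Control library 3 (144.4 against 181.3 to 185.7).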

How the results depend on the processing

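Over all alternatives run, the 4774 calls of the difference stayed within 1.5 times of that number except in the fit on 16 libraries (8341) and in the direct comparison of IRI 24 h with sham 24 h (7259). The fit on 16 libraries gave 4671 calls after sham surgery and 9590 between the control groups. Leaving out 1 library gave 4151 to 4506 calls in the difference, 6677 to 7559 after IRI, 1277 to 1744 after sham surgery and 4656 to 5894 between the control groups. The share of rises among sham calls was 26.2%, against 40.5% with DESeq2, 39.0% in the fit on 16 libraries, 13.8% without sham control library 2, 15.6% without sham 24 h library 2 and 16.1% to 19.8% without each other sham-arm library. With a replicate block within each arm 4234, 7115 and 1465 genes were called in the difference, after IRI and after sham surgery, but the numbers do not pair the samples (correlations of deviations from -0.0973 to 0.0218), and no block could be fitted between the control groups.

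Of 161 genes named here and called in the difference, 125 kept their direction and call under every alternative run. Without controls the sign turned for Umod (1.38), Sdha (0.55), Uqcrc2 (0.50), Ptger3 (0.50), Kcnj16 (0.23), Ccng1 (0.62), Cx3cl1 (0.33), Idi1 (0.52), Gclm (0.011), Met (0.11), Mfn2 (0.34) and Podxl (0.035), and, among genes not called in the difference, for Atp5a1 (0.75), Atp5b (0.83), Echs1 (0.65), Cyp4b1 (0.70), Nupr1 (-0.93), Ugt1a7c (2.70) and Wnt4 (-1.76). This comparison keeps the gap between the control groups, and no other cause was tested. The depth of the sham and IRI libraries limits genes near 1 CPM, such as S100a9 and Grp.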
